A study of Mus musculus with 8 samples.

Results

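The genes described here are the G1 cyclins and the CDK inhibitors measured with them: the D-type cyclin genes Ccnd1, Ccnd2 and Ccnd3, the E-type cyclin genes Ccne1 and Ccne2, the Cip/Kip inhibitor genes Cdkn1a and Cdkn1b, and the INK4 inhibitor genes Cdkn2a, Cdkn2b and Cdkn2c. They were taken from the count table by gene symbol and make up 10 of the 55421 gene rows in the count table. All 10 were found once, and all 10 passed the filter on low counts. The values come from RNA-seq of poly(A) transcripts, with 8 libraries of primary mouse spermatogonia on the C57BL/6XDBA/2 strain background, grown from neonatal testes on irradiated mouse embryonic fibroblasts in medium with N2, bFGF and GDNF. By label the cultures are STRA8KO or SPO11KO, and they were given either vehicle (Veh) or NRRA, a medium in which nutrients are restricted and retinoic acid is added. By the study's account the restriction is made by diluting the culture medium in a balanced salt solution. This lowers bFGF and GDNF along with the nutrients. Each of the 4 groups (STRA8KO Veh, STRA8KO NRRA, SPO11KO Veh and SPO11KO NRRA) had 2 libraries. NRRA was applied to start meiosis in culture, and the study set the STRA8KO and SPO11KO cultures beside wild-type ones to ask what the response requires. No wild-type library was analysed here, so the genotypes could be compared with each other only. Which part of the response needs either gene cannot be read from them.

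A cell passes from G1 into DNA replication when cyclin-dependent kinases phosphorylate the retinoblastoma protein and its relatives, which releases E2F transcription factors. D-type cyclins activate CDK4 and CDK6 early in G1 in answer to growth factors and nutrients, and E-type cyclins activate CDK2 at the entry into S phase. INK4 proteins bind CDK4 and CDK6 and keep D-type cyclins off them, whereas Cip/Kip proteins bind whole cyclin-CDK complexes. In spermatogonia, cyclin D2 is known for its part in the differentiation that retinoic acid induces. Cyclin E2 is known for its role in the meiotic prophase of spermatocytes. Cultured fibroblasts express much cyclin D1 and, as they stop dividing, CDK inhibitors, and the feeder layer was irradiated to stop its division.

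The libraries held 20960794 to 27038868 counts, with a common biological coefficient of variation of 3.39%. Stra8, the retinoic acid target removed in STRA8KO, had 169 and 170 counts in STRA8KO NRRA against 12604 and 16191 in SPO11KO NRRA. Spo11, the gene of the enzyme that makes meiotic DNA breaks, gave 72 and 75 counts under Veh and 148 and 127 under NRRA where its loss is labelled, which was more than the 32 and 31 and the 68 and 66 of the matching STRA8KO libraries. The total count of Spo11 therefore did not check that label, and what the cultures compared with STRA8KO lack rests on it throughout. The Stra8 counts set the STRA8KO libraries apart as labelled under NRRA. Markers of germ cells were present in all libraries, and so were those of fibroblasts. All 20 fibroblast markers were higher in STRA8KO than in the libraries labelled SPO11KO in both media, with summed levels of 31000 to 49200 CPM (counts per 1e+06 counts of a library after TMM scaling) against 16200 to 25300 CPM. All 12 pan-germ genes were lower, at 980 to 1190 CPM against 2000 to 2440 CPM. The Spo11 counts differed in the same direction as these germ cell genes, so they do not show Spo11 raised per germ cell. Markers of Sertoli cells summed to at most 51.8 CPM, those of Leydig cells to at most 8.63 CPM and those of macrophages to at most 32.9 CPM, and the Leydig markers Insl3 and Lhcgr had at most 3 counts in any library. In bulk RNA, fewer cells of a type and less RNA per cell cannot be told apart.

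Under NRRA the decreases outnumbered the increases among the 10 genes. In STRA8KO 4 genes fell (Ccnd1, Cdkn1b, Cdkn2a and Cdkn2b) and 1 rose (Ccnd3). In the libraries labelled SPO11KO 7 fell (Ccnd1, Ccnd2, Ccnd3, Ccne1, Cdkn1b, Cdkn2a and Cdkn2b) and 1 rose (Ccne2). Calls were made over all 20588 tested genes with edgeR's quasi-likelihood test, where the adjusted p was below 0.05. By that rule NRRA changed 41.9% of all genes in STRA8KO, 21.6% upwards and 20.2% downwards, and 49.9% in the libraries labelled SPO11KO, 24.5% upwards and 25.5% downwards. The 5 of 10 called in STRA8KO thus lay near the background share, and the 8 of 10 called in the libraries labelled SPO11KO above it. The 10 genes were chosen with earlier results of these data known, and calls come more readily to genes with many counts. These shares are therefore a description and no test of the 10 genes as a set. The 10 genes had a median log2 fold change of -0.15 for STRA8KO and of -0.25 with the other label, beside 0.013 for all genes in both. Without any scaling beyond the total count, the libraries labelled SPO11KO gave 2 members higher and 5 lower, and 6492 of all genes higher and 4033 lower, against 5038 and 5241 after TMM.

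**Figure D1:**
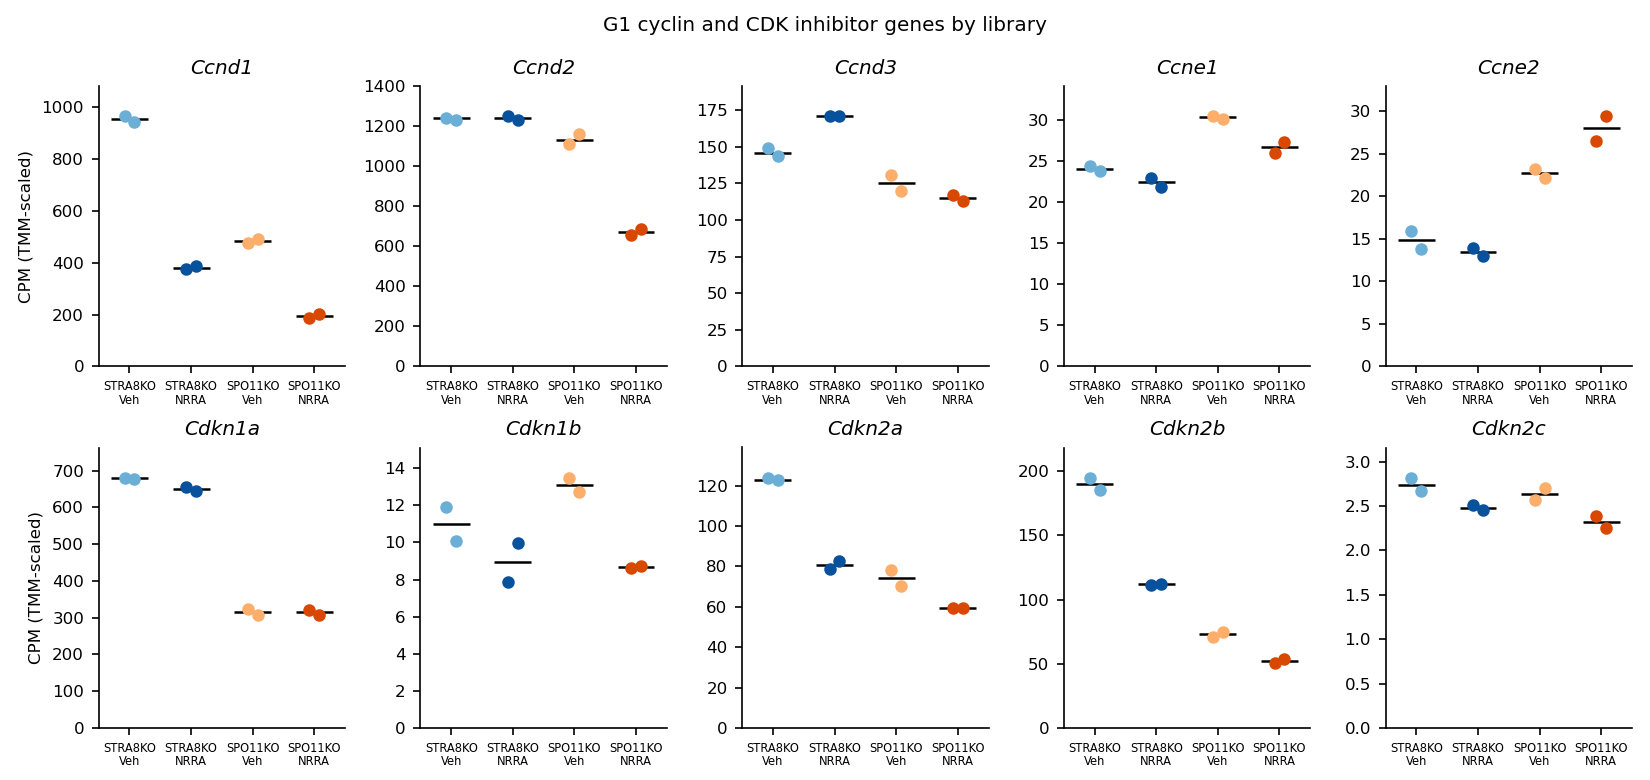
Level of each gene in each library. The y axis is CPM after TMM scaling and starts at 0, points are the 2 libraries of each group and bars are their means. Ccnd1 fell under NRRA in both cultures, Ccnd2 fell from 1130 to 670 CPM in the libraries labelled SPO11KO and stood at 1240 CPM in both STRA8KO groups, and Cdkn1a stayed near 649 to 679 CPM in STRA8KO and at 315 CPM in the libraries labelled SPO11KO.

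Ccnd1 (ENSMUSG00000070348, chr7:144929931-144939925 in GRCm38, minus strand, protein coding), which encodes cyclin D1, had the largest NRRA change of the 10 genes in both genotypes. It stood at 965 and 941 CPM in STRA8KO Veh and at 377 and 386 CPM in STRA8KO NRRA. With the label SPO11KO it stood at 475 and 493 CPM under Veh and at 186 and 201 CPM under NRRA. The order of the groups was STRA8KO Veh, SPO11KO Veh, STRA8KO NRRA and SPO11KO NRRA, and no neighbours in this order overlapped. The NRRA change was a log2 fold change of -1.32 ± 0.038 in STRA8KO (SE, 2 libraries a group, adjusted p = 9.12e-33) and of -1.32 ± 0.0388 where the label is SPO11KO (adjusted p = 2.47e-32), a 0.4-fold level in both. The difference between these 2 changes, tested as the interaction (the change for STRA8KO less the change for the label SPO11KO), was 0 ± 0.0525 (adjusted p = 0.996). Over 15 alternative analyses of the NRRA change the log2 fold change lay between -1.35 and -1.3 in STRA8KO and between -1.4 and -1.23 in the libraries labelled SPO11KO. Some of these left out a library of the other genotype, which could move the value little. The fibroblast marker sum moved the other way under NRRA, by 0.65 in log2 in STRA8KO and 0.62 with the other label, with 13 of 20 markers higher in each genotype and 6 lower in the former and 7 in the latter. Its abundant markers did not move alike. In STRA8KO the mean of Col1a1 went from 4140 to 11400 CPM and that of Fn1 from 10500 to 7870 CPM. S100a4, the study's feeder marker, changed by -2.18 there and by -1.66 with the other label. The sum is thus no plain measure of feeder cells, and relative to it every member was lower under NRRA in both genotypes. Relative to that sum the decrease of Ccnd1 was -1.97 and -1.94, and relative to the pan-germ sum it was -1.56 and -1.57.

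Ccnd2 (ENSMUSG00000000184, chr6:127125162-127152193, minus strand, protein coding), the gene of cyclin D2, fell under NRRA in the libraries labelled SPO11KO and was not called in STRA8KO, and the difference between the genotypes was itself called. It stood at 1240 and 1230 CPM in STRA8KO Veh and at 1250 and 1230 CPM in STRA8KO NRRA, so these groups overlapped. The SPO11KO label had it at 1110 and 1160 CPM under Veh and at 655 and 685 CPM under NRRA, lower than in any other group. The log2 fold change under NRRA was 0.01 ± 0.0343 (adjusted p = 0.899) in STRA8KO and -0.76 ± 0.0346 (adjusted p = 1.65e-24) in the libraries labelled SPO11KO. The interaction was 0.77 ± 0.0487 (adjusted p = 4.57e-18), in a background in which 25.1% of all genes had a called interaction, 14.8% positive and 10.3% negative. Markers of undifferentiated spermatogonia mostly fell under NRRA in the libraries where Ccnd2 did. Their sum went from 1600 and 1560 CPM to 518 and 522 CPM under NRRA in the libraries labelled SPO11KO, with 11 of 12 markers lower and 1 higher. In STRA8KO it went from 719 and 716 CPM to 760 and 760 CPM, with 6 of 12 higher and 5 lower. Under Veh all 12 markers were lower in STRA8KO than with the other label, whereas Ccnd2 was higher, by 0.12. The part of these cells in the Ccnd2 result was not tested. Relative to the pan-germ sum, Ccnd2 changed by -0.23 in STRA8KO and by -1.01 in the libraries labelled SPO11KO, and relative to the fibroblast sum by -0.64 and -1.38. On these ratios the NRRA libraries lay below the Veh libraries in both genotypes.

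Ccnd3 (ENSMUSG00000034165, chr17:47505051-47599691, plus strand, protein coding) encodes cyclin D3 and moved in opposite directions in the genotypes. It rose from 149 and 144 CPM to 171 and 171 CPM in STRA8KO, a log2 fold change of 0.22 ± 0.0446 (adjusted p = 5.05e-05). It went from 131 and 120 CPM to 117 and 113 CPM in the libraries labelled SPO11KO, a log2 fold change of -0.13 ± 0.0452 (adjusted p = 0.017). The interaction was 0.35 ± 0.0635 (adjusted p = 2.38e-05). The decrease in the libraries labelled SPO11KO was small and lost its call without SPO11KO Veh replicate 1 (-0.06, adjusted p = 0.408) and without SPO11KO NRRA replicate 2 (-0.12, adjusted p = 0.0732). It was also lost with total counts (-0.03, adjusted p = 0.547). The increase in STRA8KO was called in all 15 alternative analyses, at 0.19 to 0.25, counting those that left out a library of the other genotype. Relative to the fibroblast sum, which itself rose under NRRA, it was a decrease, of -0.42. Relative to the pan-germ sum the change was -0.02, with groups that overlapped.

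Per length of exon the D-type cyclins were the most abundant of the 4 classes under Veh, and their makeup shifted under NRRA. Their summed level went from 350 ± 5.37 (SD, n = 2) to 232 ± 0.124 CPM per kb in STRA8KO and from 238 ± 4.99 to 125 ± 4.26 CPM per kb in the libraries labelled SPO11KO. Ccnd1 held 57.7% ± 0.138 of that sum in STRA8KO Veh and 34.8% ± 0.573 in STRA8KO NRRA, while the share of Ccnd2 went from 37.5% ± 0.198 to 56.8% ± 0.578. For the label SPO11KO the share of Ccnd1 went from 43.3% ± 0.213 to 32.8% ± 0.732 and that of Ccnd2 from 50.7% ± 0.304 to 56.8% ± 0.113. Per kb, Ccnd2 was thus the leading D-type cyclin transcript in both NRRA groups and in SPO11KO Veh, and Ccnd1 in STRA8KO Veh. In CPM without a length, Ccnd2 also led in STRA8KO Veh, with a mean of 1240 against 953 CPM. The share of Ccnd3 stayed between 4.76% and 10.5% of the sum. The length used is the union of all annotated exons, 4709 bp for Ccnd1, 9409 bp for Ccnd2 and 8775 bp for Ccnd3. It can exceed the length of the transcripts present, so shares between genes depend on it.

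**Figure D2:**
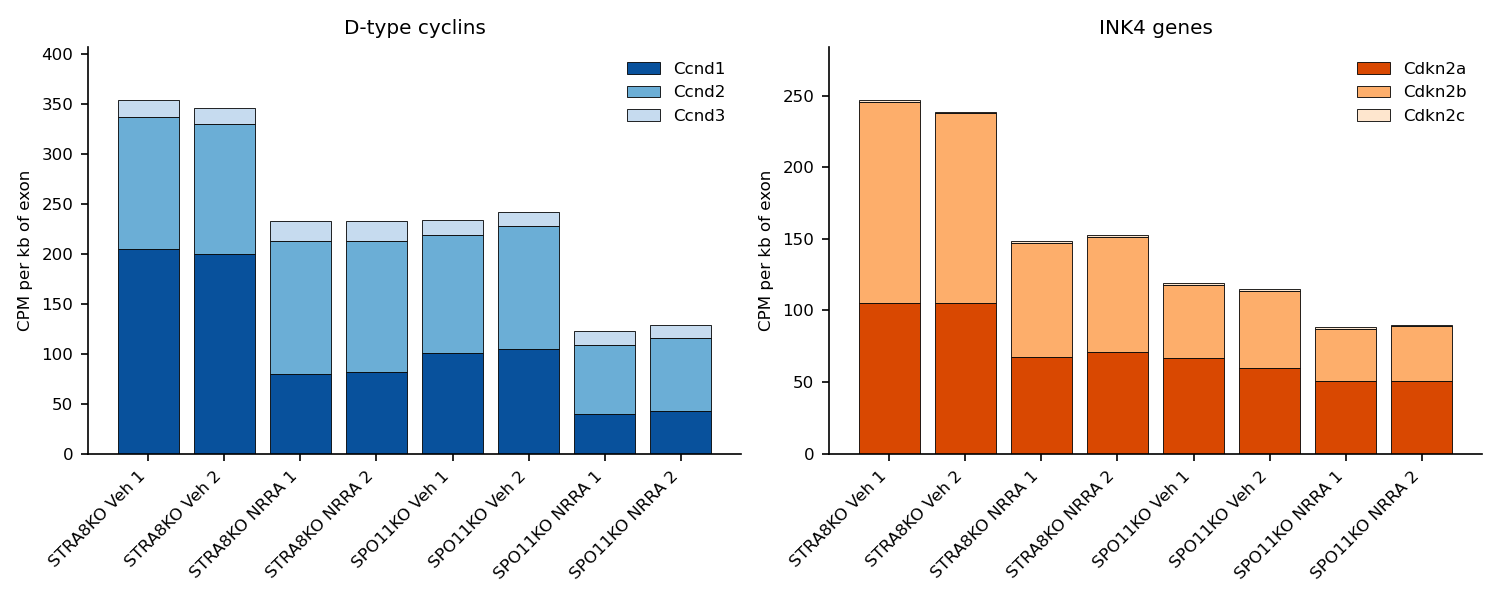
Summed level of the D-type cyclins (left) and the INK4 genes (right) in each of the 8 libraries. The y axis is CPM per kb of exon, starting at 0, and colours divide each bar by gene. The dark Ccnd1 part shrinks under NRRA in both genotypes, the Ccnd2 part shrinks in the libraries labelled SPO11KO only, and Cdkn2c is a barely visible sliver of the INK4 bars, at 0.42% to 0.972% of the group sums.

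The E-type cyclins were far less abundant, with summed levels of 12.3 to 18.0 CPM per kb over the groups. Ccne1 (ENSMUSG00000002068, chr7:38097984-38107534, minus strand, protein coding), the gene of cyclin E1, stood at 24.4 and 23.8 CPM in STRA8KO Veh and at 23 and 21.9 CPM in STRA8KO NRRA. Where the label is SPO11KO it went from 30.5 and 30.2 CPM under Veh to 26 and 27.3 CPM under NRRA, a log2 fold change of -0.19 ± 0.0725 (adjusted p = 0.028). Both STRA8KO groups lay below both groups labelled SPO11KO. The call for NRRA did not last when SPO11KO Veh replicate 1 (-0.18, adjusted p = 0.103), SPO11KO Veh replicate 2 (-0.21, adjusted p = 0.0532) or SPO11KO NRRA replicate 1 (-0.16, adjusted p = 0.141) was left out.

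Ccne2 (ENSMUSG00000028212, chr4:11191351-11204779, plus strand, protein coding), the gene of cyclin E2, was the only member that rose under NRRA in the libraries labelled SPO11KO. It went from 23.2 and 22.1 CPM to 26.5 and 29.4 CPM there, a log2 fold change of 0.31 ± 0.0814 (adjusted p = 0.00144). In STRA8KO it stood at 15.9 and 13.8 CPM under Veh and at 13.9 and 13 CPM under NRRA, and these groups overlapped (-0.15 ± 0.101, adjusted p = 0.23). The interaction was -0.46 ± 0.13 (adjusted p = 0.00576). Ccne2 made up 36.2% ± 0.699 of the E-type sum per kb in SPO11KO Veh and 44.4% ± 0.95 in SPO11KO NRRA, against 32.0% ± 1.76 and 31.2% ± 0.257 in STRA8KO Veh and NRRA. The increase rested on SPO11KO NRRA replicate 2 for its call (0.21, adjusted p = 0.0871 without it) and the interaction on STRA8KO Veh replicate 1 (-0.35, adjusted p = 0.1 without it). The pan-germ sum rose beside it by 0.25 in log2, and relative to that sum the change of Ccne2 in the libraries labelled SPO11KO was 0.05, with groups that overlapped.

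Cdkn1a (ENSMUSG00000023067, chr17:29090976-29100727, plus strand, protein coding) encodes p21, the Cip/Kip inhibitor that p53 induces. It was among the most abundant of the 10 genes per length, with 191 ± 0.512 CPM per kb under Veh and 183 ± 2.27 under NRRA in STRA8KO, and 88.6 ± 3.57 and 88.5 ± 3.14 with the other label. It stood at 681 and 678 CPM in STRA8KO Veh and at 655 and 644 CPM in STRA8KO NRRA, a log2 fold change of -0.07 ± 0.0366 (adjusted p = 0.156). The libraries labelled SPO11KO had 324 and 306 CPM under Veh and at 322 and 307 CPM under NRRA, a log2 fold change of 0 ± 0.0375 (adjusted p = 0.983). No change under NRRA was called in either genotype, and the interaction was -0.06 ± 0.0524 (adjusted p = 0.428). With DESeq2 size factors the decrease in STRA8KO was called (-0.09, adjusted p = 0.0427), and with total counts an increase in the libraries labelled SPO11KO was (0.09, adjusted p = 0.0365).

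Cdkn1b (ENSMUSG00000003031, chr6:134920401-134925513, plus strand, protein coding) encodes p27, the Cip/Kip inhibitor linked to quiescence and to growth factor withdrawal. Its transcript was scarce, at 1.06% to 3.15% of the Cip/Kip sum of Cdkn1a and Cdkn1b per kb. It fell under NRRA in the libraries labelled SPO11KO, from 13.5 and 12.7 CPM to 8.64 and 8.73 CPM (-0.6 ± 0.116, adjusted p = 2.24e-05). In STRA8KO it went from 11.9 and 10.1 CPM to 7.87 and 9.97 CPM, groups set apart by less than the spread within them (-0.3 ± 0.126, adjusted p = 0.0487). Without STRA8KO Veh replicate 1 that change was -0.18 (adjusted p = 0.424) and without STRA8KO NRRA replicate 1 it was -0.14 (adjusted p = 0.508). The interaction was not called (0.29 ± 0.172, adjusted p = 0.231).

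The INK4 genes Cdkn2a and Cdkn2b are neighbours on the minus strand of chromosome 4, and both fell under NRRA in both genotypes. Cdkn2a (ENSMUSG00000044303, chr4:89274471-89294653, protein coding) has 2 starts: transcripts from the distal one encode p19Arf, an activator of p53, and transcripts from the proximal one encode p16Ink4a. A count per gene pools them. Cdkn2b (ENSMUSG00000073802, chr4:89306299-89311039, protein coding) encodes p15Ink4b. The sequences ahead of these starts are shown because the genes fell together. They are from RefSeq (GRCm38.p6), 5′ to 3′ on the minus strand, each cut from the 150 bases before the start so that no base of an annotated exon is included, with capitals for motifs found by search.
Cdkn2a distal start, chr4:89294654-89294769: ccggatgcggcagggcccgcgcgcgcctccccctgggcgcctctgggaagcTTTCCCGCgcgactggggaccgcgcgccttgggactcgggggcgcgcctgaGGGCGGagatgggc
Cdkn2a proximal start, chr4:89282193-89282342: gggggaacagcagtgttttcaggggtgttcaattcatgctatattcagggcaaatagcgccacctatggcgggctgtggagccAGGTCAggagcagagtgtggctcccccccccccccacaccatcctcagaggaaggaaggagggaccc
Cdkn2b start, chr4:89311040-89311182: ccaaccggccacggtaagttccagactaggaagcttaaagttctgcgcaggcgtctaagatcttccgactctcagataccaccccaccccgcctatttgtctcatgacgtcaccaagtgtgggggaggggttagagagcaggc
The capitals mark TTTCCCGC (a form of the E2F motif) and GGGCGG (the GC box) ahead of the distal Cdkn2a start and AGGTCA (a half-site of nuclear receptors, the family of the retinoic acid receptors) ahead of the proximal one. Both strands of the 150 bases were searched for these and for TTGGCGC (an E2F form), TATAAA (the TATA box), TGANTCA (the AP-1 motif) and TTCGCGC (also an E2F form). Over 7 of the 10 genes, with 11 starts in the RefSeq table, 7 starts held a GC box, 2 held AGGTCA and 1 held TTTCCCGC, a form added to the search after the sequence ahead of the distal Cdkn2a start had been read. The other letters searched were not found in these windows. Of 32851 promoters searched alike, 28.6% held a GC box, 8.58% AGGTCA, 2.19% one of the first pair of E2F forms, 0.603% the added one, 7.57% a TATA box and 4.24% an AP-1 motif. A match describes letters in a window and no more.

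Cdkn2a stood at 124 and 123 CPM in STRA8KO Veh and at 78.9 and 82.9 CPM in STRA8KO NRRA. Under the SPO11KO label it went from 78.2 and 70.4 CPM to 59.5 and 59.4 CPM. The groups did not overlap in either genotype, and the log2 fold changes were -0.6 ± 0.0507 (adjusted p = 1.71e-14) and -0.32 ± 0.0527 (adjusted p = 9.85e-07). Cdkn2b stood at 195 and 185 CPM in STRA8KO Veh and at 111 and 112 CPM in STRA8KO NRRA. In the libraries labelled SPO11KO it went from 71.1 and 74.7 CPM to 50.7 and 53.4 CPM. Its groups did not overlap either, with log2 fold changes of -0.77 ± 0.0458 (adjusted p = 6.56e-20) and -0.49 ± 0.0512 (adjusted p = 1.84e-11). Both decreases were larger in STRA8KO, with an interaction of -0.28 ± 0.0732 (adjusted p = 0.00256) for Cdkn2a and one of -0.28 ± 0.0687 (adjusted p = 0.00122) for Cdkn2b. Both interactions were called under every other scaling, filter and tool tried and with each library left out, at -0.38 to -0.21 and -0.38 to -0.24.

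Cdkn2c (ENSMUSG00000028551, chr4:109660876-109667189, minus strand, protein coding), the gene of p18Ink4c, was the scarcest of the 10. It had 52 to 66 counts in every library, or 2.25 to 2.82 CPM, and no contrast was called. Its standard errors were 0.217 to 0.227 for contrasts of 2 groups, so that a change of the size seen in Cdkn2a under NRRA in the libraries labelled SPO11KO could not have been told from none at this depth.

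**Figure D3:**
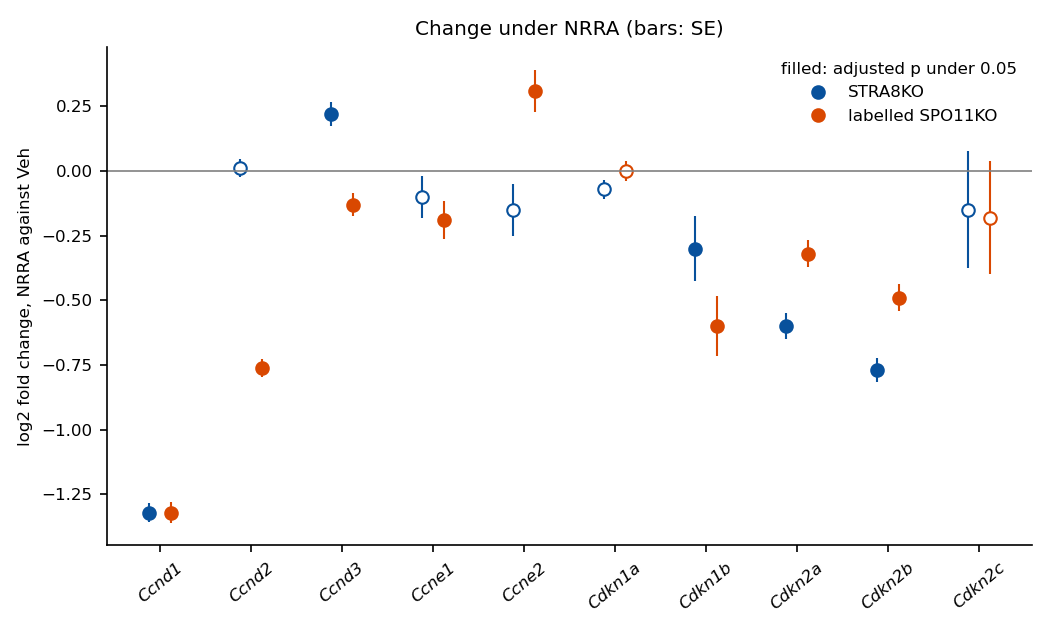
Change of each gene under NRRA. The y axis is the log2 fold change of NRRA against Veh, error bars are the SE of the fit on 2 libraries a group, and filled points were called. The Ccnd1 points of both genotypes lie together at -1.32, those of Ccnd2 lie 0.77 apart, and Ccnd3 and Ccne2 lie on opposite sides of 0.

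Between the genotypes, 6 of the 10 genes (Ccnd1, Ccnd2, Ccnd3, Cdkn1a, Cdkn2a and Cdkn2b) were higher in STRA8KO than in the libraries labelled SPO11KO and 2 (Ccne1 and Ccne2) were lower, both under Veh and under NRRA. Of all genes, 62.3% were called under Veh, 31.6% higher and 30.7% lower, and 64% under NRRA, 35% higher and 28.9% lower, so that 8 of 10 was not far above the background. The median of the 10 genes was 0.17 under Veh and 0.51 under NRRA, beside 0.001 and 0.066 for all genes. With total counts the median of all genes shifted by -0.113 under Veh and by -0.207 under NRRA, which left 5 members higher and 3 lower under Veh and 6 higher and 2 lower under NRRA, while the calls over all genes under NRRA went from 7214 higher and 5956 lower to 5348 and 8183. The small difference of Ccnd2 under Veh (0.12 ± 0.0343, adjusted p = 0.00152) was 0.01 on that scaling (adjusted p = 0.785).

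A change of at least 2-fold besides the adjusted p was met by 1 member, Ccnd1, under NRRA in either genotype, beside 10.5% of all genes in STRA8KO and 12.3% with the other label. Between the genotypes 2 members met it under Veh, Cdkn1a and Cdkn2b, beside 16.2% of all genes, and 3 under NRRA, where Ccne2 joined them, beside 18.5%. For the interaction 0 members met it in edgeR's test, beside 5.71% of all genes, against 5 without the fold.

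Of the genes higher in STRA8KO, Cdkn2b had the largest genotype difference, 1.39 ± 0.0473 in log2 under Veh (adjusted p = 2.32e-29) and 1.1 ± 0.0497 under NRRA (adjusted p = 7.71e-25). Cdkn1a followed at 1.11 ± 0.0375 (adjusted p = 1.61e-29) and 1.05 ± 0.0373 (adjusted p = 9.73e-29), and Ccnd1 at 0.98 ± 0.0375 (adjusted p = 1.94e-27) and 0.98 ± 0.039 (adjusted p = 7.41e-27). The fibroblast marker sum differed by 0.94 under Veh and by 0.97 under NRRA. Relative to that sum, the genotype difference of Ccnd1 was 0.04 and 0.01 with groups that overlapped, that of Cdkn1a was 0.17 and 0.08, and that of Cdkn2b was 0.45 and 0.14, with groups apart for both genes in both media. Cdkn2a, at 0.73 ± 0.0507 (adjusted p = 1.23e-17) and 0.45 ± 0.0528 (adjusted p = 2.78e-10), was lower in STRA8KO relative to the sum, at -0.21 and -0.52. Ccnd2 and Ccnd3 were also lower in STRA8KO relative to it, with groups apart in both media. The values were -0.81 under Veh and -0.07 under NRRA for Ccnd2, and -0.71 and -0.39 for Ccnd3. The share of feeder RNA and the genotype cannot be told apart in these libraries.

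The E-type cyclins were lower in STRA8KO, as the pan-germ genes were, but in most cases by less. The difference of Ccne1 was -0.34 ± 0.0762 under Veh (adjusted p = 0.000155) and -0.25 ± 0.0767 under NRRA (adjusted p = 0.00426), and that of Ccne2 was -0.6 ± 0.0921 (adjusted p = 1.55e-07) and -1.06 ± 0.0897 (adjusted p = 8.86e-15). The pan-germ sum differed by -1.04 and -1.05. Relative to it, Ccne2 was higher by 0.43 under Veh and differed by -0.01 under NRRA with groups that overlapped, and Ccne1 was higher by 0.7 and 0.8. The genotype difference of Ccne1 under NRRA lost its call without STRA8KO NRRA replicate 2 (-0.21, adjusted p = 0.0569) and without SPO11KO NRRA replicate 2 (-0.21, adjusted p = 0.0586). Cdkn1b differed by -0.25 ± 0.117 under Veh (adjusted p = 0.0556) and by 0.04 ± 0.125 under NRRA (adjusted p = 0.795), and Cdkn2c by 0.06 ± 0.221 and 0.1 ± 0.223.

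**Figure D4:**
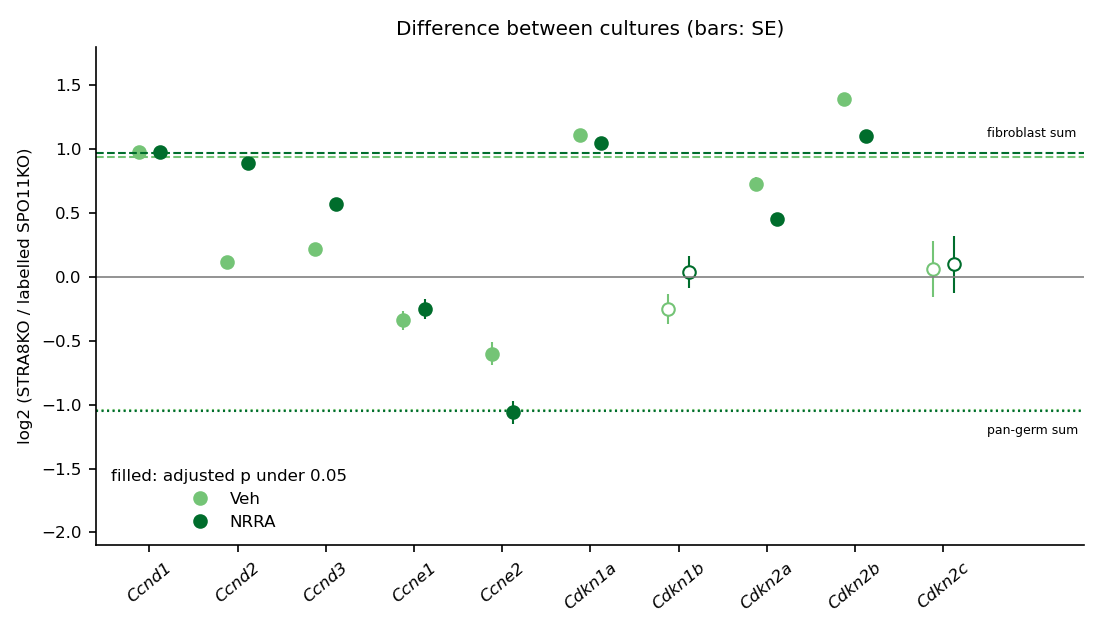
Difference of each gene between STRA8KO and the libraries labelled SPO11KO. The y axis is the log2 ratio under Veh (light) and NRRA (dark), error bars are SE, filled points were called, and dashed and dotted lines give the same difference for the fibroblast marker sum and the pan-germ sum. Ccnd1 lies on the fibroblast lines at 0.94 and 0.97, and Ccne2 under NRRA lies on the pan-germ line at -1.05.

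The kinases and other partners of these genes were described from a list of 28 G1 genes. Under NRRA 5 rose and 9 fell in STRA8KO, and 7 rose and 14 fell in the libraries labelled SPO11KO. Of all genes, 21.6% rose and 20.2% fell in STRA8KO, and 24.5% rose and 25.5% fell with the other label. Cdk4, a kinase that D-type cyclins activate, followed the pattern of Ccnd2. In STRA8KO it stood at 263 and 268 CPM under Veh and 246 and 253 CPM under NRRA. With the other label it went from 264 and 251 CPM to 154 and 158 CPM. The log2 fold changes were -0.09 ± 0.0393 (adjusted p = 0.0714) and -0.72 ± 0.0397 (adjusted p = 2.99e-21), and the interaction was 0.63 ± 0.0558 (adjusted p = 3.33e-13). The small decrease in STRA8KO was called in several alternatives, at -0.11 with DESeq2 size factors (adjusted p = 0.0191). Cdk6, the other kinase of D-type cyclins, rose in both genotypes, by 0.18 ± 0.0462 (adjusted p = 0.00119) and 0.57 ± 0.0505 (adjusted p = 1.1e-13). Cdk2, the partner of E-type cyclins, rose in the libraries labelled SPO11KO (0.24 ± 0.0566, adjusted p = 0.000319) as Ccne2 did, and changed by -0.12 ± 0.0685 in STRA8KO (adjusted p = 0.162).

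Mycn, the gene of a growth-promoting transcription factor, moved in opposite directions, by 0.32 ± 0.0623 in STRA8KO (adjusted p = 2.89e-05) and by -1.08 ± 0.0607 in the libraries labelled SPO11KO (adjusted p = 5.92e-21). E2f8, an E2F that represses, fell in STRA8KO (-1.12 ± 0.0891, adjusted p = 2.43e-15) and not in the libraries labelled SPO11KO (-0.06 ± 0.0712, adjusted p = 0.501), with an interaction of -1.06 ± 0.114 (adjusted p = 1.67e-10). The 2 inhibitor genes outside the 10 went up under NRRA where a change was called. Cdkn1c, the third Cip/Kip gene, rose from 26.5 and 23.5 CPM to 51.6 and 49.4 CPM in STRA8KO and from 18.1 and 16.1 CPM to 39.8 and 38 CPM in the libraries labelled SPO11KO (1.01 ± 0.073, adjusted p = 8.62e-17, and 1.18 ± 0.0764, adjusted p = 1.35e-18). Cdkn2d, the gene of p19Ink4d, rose in the libraries labelled SPO11KO (0.62 ± 0.125, adjusted p = 4.6e-05) and changed by 0.31 ± 0.14 in STRA8KO (adjusted p = 0.0695). Rb1, the retinoblastoma gene, changed little in either, by -0.17 ± 0.0614 (adjusted p = 0.0249) and 0.15 ± 0.0565 (adjusted p = 0.0248), and both calls were lost when 1 library was left out, at -0.1 without STRA8KO Veh replicate 1 and 0.08 without SPO11KO NRRA replicate 2.

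Genes that act after G1 were read from 2 further lists. Of 24 S phase genes that E2F factors control, 3 rose and 9 fell under NRRA in STRA8KO, and 1 rose and 19 fell in the libraries labelled SPO11KO. Beside this, 21.6% of all genes rose and 20.2% fell in STRA8KO, and 24.5% and 25.5% did so with the other label. The median of the list was -0.08 and -0.33. Rrm2, a subunit of ribonucleotide reductase, fell in both (-0.74 ± 0.0615, adjusted p = 1.43e-14, and -1 ± 0.0533, adjusted p = 9.34e-22), and Mcm10, a replication initiation gene, did so as well (-0.56 ± 0.0692, adjusted p = 1.78e-09, and -0.93 ± 0.0538, adjusted p = 2.24e-20). Chaf1b, a subunit of a chromatin assembly factor, rose in STRA8KO (0.72 ± 0.0679, adjusted p = 6.54e-13) and fell in the libraries labelled SPO11KO (-0.69 ± 0.0624, adjusted p = 1.58e-13). All 24 were lower in STRA8KO than in the libraries labelled SPO11KO under Veh, with a median of -0.96, and 23 of 24 under NRRA, beside the pan-germ difference of -1.04 and -1.05. Of all genes, 30.7% were called lower under Veh and 28.9% under NRRA.

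Of the 10 S and M phase cyclins and regulators, 2 rose and 6 fell in STRA8KO under NRRA, and 3 rose and 7 fell in the libraries labelled SPO11KO. Without STRA8KO NRRA replicate 2, 2 rose and 3 fell in STRA8KO. The shares of all genes were 21.6% up and 20.2% down in STRA8KO, and 24.5% up and 25.5% down with the other label. Ccna1, the gene of the germ line cyclin A1, had 8 to 13 counts in 6 libraries and 65 and 83 counts in SPO11KO NRRA, a log2 fold change of 2.31 ± 0.328 there (adjusted p = 4.51e-08) and of 0.07 ± 0.48 in STRA8KO (adjusted p = 0.93). The interaction was -2.24 ± 0.601 (adjusted p = 0.00353) and was not called without STRA8KO Veh replicate 1 (-2.02, adjusted p = 0.0605). Ccnb1, the gene of the mitotic cyclin B1, fell alike in both (-0.32 ± 0.0597, adjusted p = 1.65e-05, and -0.31 ± 0.0491, adjusted p = 4.9e-07).

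Since p53 induces Cdkn1a, 20 of its other target genes were read beside it. Under NRRA 9 rose and 8 fell in STRA8KO, and 6 rose and 8 fell in the libraries labelled SPO11KO, a split that turned to 9 and 5 with total counts. All genes had shares of 21.6% up and 20.2% down in STRA8KO, and of 24.5% and 25.5% with the other label. The medians, 0.06 and 0.05, lay near those of all genes. Fas, a death receptor gene, rose in both (1.07 ± 0.0708, adjusted p = 3.31e-18, and 1.1 ± 0.0806, adjusted p = 1.46e-16), and Pmaip1, the gene of the apoptosis factor Noxa, fell in both (-0.61 ± 0.0597, adjusted p = 1.96e-12, and -0.78 ± 0.0687, adjusted p = 8.12e-14). Between the genotypes 18 of the 20 were higher in STRA8KO under Veh and 19 under NRRA, as Cdkn1a was, with medians of 0.88 and 0.85. Of all genes, 31.6% were called higher under Veh and 35% under NRRA. Perp, a cell adhesion gene, differed most under Veh, at 1.46 ± 0.0744 (adjusted p = 9.42e-23). The fibroblast sum differed by 0.94 and 0.97 between the same libraries, and its part in these differences was not tested.

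Several of the 10 genes share exon sequence with a gene on the other strand. The study describes its libraries as stranded, but the strand setting of the counting is not given in the sources used here. The reads of such pairs thus cannot be told apart in these counts. The pairs were found from the annotation and their counts were looked at after the members' values were known. LTO1 shares 1100 bp with Ccnd1 and went from 7197 and 6074 to 2790 and 2852 counts under NRRA in STRA8KO, and from 3821 and 3829 to 1978 and 2405 with the other label. That was 32.5% to 41.0% of the count of Ccnd1 in the same library, and the log2 fold changes of LTO1 under NRRA were -1.24 and -1.05. Gm43126, an antisense transcript annotated over Ccnd2, had 6.93% to 7.64% of its count and changed by 0.04 in STRA8KO and by -0.71 in the libraries labelled SPO11KO. The gene 1700023B13Rik over Cdkn1a had 4.31% to 5.61% of its count and differed by 1.21 and 1.17 between the genotypes. Each of these 3 had the direction of the gene it overlaps in these contrasts. A further antisense gene over Ccnd2, 9330179D12Rik, had 11 to 32 counts. It differed by -0.72 between the genotypes under Veh, where Ccnd2 differed by 0.12. Bysl over Ccnd3, at 42.9% to 62.6% of its count, changed under NRRA by 0.01 in STRA8KO and -0.4 with the other label, where Ccnd3 changed by 0.22 and -0.13, and differed by -0.1 and 0.31 between the genotypes, where Ccnd3 differed by 0.22 and 0.57. Ints8 over Ccne2, at 300.0% to 503.0%, changed by -0.2 and -0.1, where Ccne2 changed by -0.15 and 0.31, and differed by -0.36 and -0.46, where Ccne2 differed by -0.6 and -1.06. These pairs thus shared the direction in some contrasts and not in others.

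**Figure D5:**
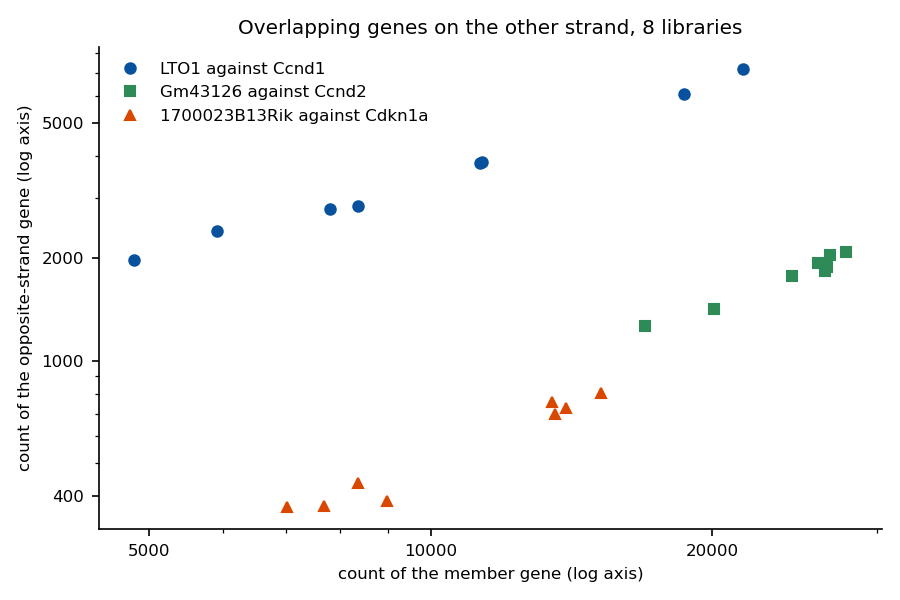
Count of 3 opposite-strand genes against the count of the member they overlap, in the 8 libraries. Both axes are logarithmic and show counts, and each point is 1 library. LTO1 runs along with Ccnd1 from 1978 to 7197 counts, and the 2 other genes lie at 4.31% to 7.64% of the count of the gene they overlap.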

How the data were processed

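Raw counts of reads for each Ensembl gene were deposited by the authors as a single table in which every library has its own column. No normalization or pooling had been applied to these whole numbers. Per the labels and the submitters' processing notes, reads were aligned to mm10 with STAR 2.6.1c and counted with featureCounts 1.6.4. The annotation release, the strand setting and the treatment of reads with several matches are not given in the sources used here. Reads of overlapping genes may thus be shared, split or dropped.

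The counts were fitted in R 4.3.3 with edgeR 4.0.16 after filterByExpr (20588 genes, 99.88% of counts) and TMM scaling. The 8 libraries shared a model with a mean for each group, and 5 contrasts were tested two-sided by the quasi-likelihood F test, with Benjamini-Hochberg adjustment over all tested genes. Sequencing was done on 2 independent biological replicates, by the study's account, which also says in general that replicates used separate mice, tissues or cells. Which of these holds for the libraries is not stated, and p-values measure the spread between them. Whether a genotype came from several derived cultures is not stated either. A genotype difference therefore cannot be told apart from a difference between cultures. The libraries of a group differed by more than sampling noise and were kept apart. Standard errors are the fold change divided by the root of F. DESeq2 1.42.0, named in the study's methods, served as an alternative, next to other scalings, filters, thresholds, a replicate block and each library left out. The code of the fit was run on simulated data as a check of the code, which bears on no call. Positions and exon lengths came from GENCODE release M21, which held 99.52% of the identifiers, and the sequences from RefSeq (GRCm38.p6).

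The members and gene lists were chosen with earlier results of these data known. Named besides the members were Stra8, Spo11 and 6 G1 partners (Cdk2, Cdk4, Cdk6, Cdkn1c, Cdkn2d and Rb1). From the G1, S phase, S and M phase and p53 lists, called genes with the largest rise or fall in a contrast were eligible, at most 2 each way. Some of these were named, with values in some of the other contrasts. Col1a1, Fn1 and S100a4 were named to show the spread among fibroblast markers, and Insl3 and Lhcgr for their low counts. Opposite-strand genes were named for their shared exons.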

Additional observations from a re-analysis of the deposited data

Results flagged for a closer look

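The NRRA effect differed between the genotypes, by a called interaction in edgeR's quasi-likelihood test, in 5 of the 10 genes: by 0.77 in log2 for Ccnd2, 0.35 for Ccnd3, -0.46 for Ccne2, -0.28 for Cdkn2a and -0.28 for Cdkn2b (STRA8KO minus the libraries labelled SPO11KO). That share stood beside 25.1% of all genes. Of the partners and later genes named, the difference was 0.63 for Cdk4, -0.36 for Cdk2, -0.38 for Cdk6, -0.32 for Rb1, 1.4 for Mycn, -1.06 for E2f8, 0.26 for Rrm2, 0.37 for Mcm10, 1.41 for Chaf1b, -2.24 for Ccna1 and -0.38 for Perp. The smallest of these, that of Rrm2, was not called with total counts (0.17, adjusted p = 0.124). Without STRA8KO Veh replicate 1 the calls of Ccne2 (-0.35), Rb1 (-0.25, adjusted p = 0.0667), Perp (-0.31, adjusted p = 0.0582), Rrm2 (0.24, adjusted p = 0.0667) and Ccna1 (-2.02, adjusted p = 0.0605) were lost. No group had enough libraries to test for a library that stands apart.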

How the results depend on the processing

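Over 740 pairs of a member's contrast and an alternative, 676 kept their direction and side of the threshold, 21 lost the call, 7 gained one and 36 turned in sign. The pairs include fits that left out a library outside the contrast. Such fits could move the contrast little, so the share that stayed the same is partly set by the design. Requiring a change of at least 2-fold left 1 member under NRRA in STRA8KO, 1 in the libraries labelled SPO11KO, 2 between the genotypes under Veh, 3 under NRRA and 0 for the interaction. In the same order, 10.5%, 12.3%, 16.2%, 18.5% and 5.71% of all genes met that rule. The interaction split of all genes went from 3051 positive and 2121 negative to 2188 and 3473 with total counts.

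The sign turned only for values near 0 in the analysis reported: the interaction of Ccnd1 (-0.03 with DESeq2 size factors and the DESeq2 Wald test, -0.09 with total counts, -0.06 without filter, -0.06 to 0.06 with a library left out), of Ccne1 (-0.01 with total counts), and of Cdkn2c (-0.06 with total counts, -0.03 without filter, -0.01 to 0.07 with a library left out). The same held for Ccnd2 under NRRA in STRA8KO (-0.02 with size factors and Wald, -0.01 without filter, -0.01 to 0.02 with a library left out) and for Cdkn1a under NRRA in the libraries labelled SPO11KO (0 with size factors, Wald and a mean count of at least 10, 0.09 with total counts, 0.05 without filter, -0.05 to 0.04 with a library left out). Cdkn1b between the genotypes under NRRA gave -0.17 with total counts, -0.01 without filter, -0.03 with only the 4 libraries compared and -0.14 to 0.2 with a library left out, and Cdkn2c -0.05 under Veh and -0.11 under NRRA with total counts. Of the partners, Cdk4 under Veh gave -0.07 and E2f8 under NRRA in the libraries labelled SPO11KO 0.03 with total counts. With a library left out, Ccna1 gave -0.11 to 0.29 under NRRA in STRA8KO and -0.4 to 0 between the genotypes under Veh, and the interactions of Ccnb1 and Fas gave -0.08 to 0.07 and -0.12 to 0.07. The causes were not tested.

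Other losses beside those given with the genes were Ccne1 under NRRA in the libraries labelled SPO11KO with total counts (-0.10), without filter (-0.14) and by Wald (-0.18), Ccnd3 there without filter (-0.08) and by Wald (-0.12), and Cdkn1b under NRRA in STRA8KO by Wald (-0.33, adjusted p = 0.122) and with a mean count of at least 10 (-0.30, adjusted p = 0.0537). Cdkn1b between the genotypes under Veh gained a call with total counts (-0.37, adjusted p = 0.00589), a mean count of at least 10 (-0.26), only the 4 libraries compared (-0.26), and without STRA8KO Veh replicate 1 (-0.38) or STRA8KO NRRA replicate 1 (-0.25). The interaction of Cdkn1a gained one with total counts (-0.16, adjusted p = 0.0174).

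The labels do not say whether replicate numbers pair the libraries. Replicate differences of the groups correlated at -0.07 to 0.14, the highest between SPO11KO Veh and SPO11KO NRRA. Low values of this kind do not exclude a pairing. With the replicate block 4, 8, 8, 8 and 5 members were called against 5, 8, 8, 8 and 5, and the 1 call lost was Cdkn1b under NRRA in STRA8KO (-0.30, adjusted p = 0.0503). At 52 to 66 counts a library, depth limited what Cdkn2c could show.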
